A study of Mus musculus with 10 samples.

Results

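The genes described here are 32 genes of pyruvate oxidation and the tricarboxylic acid (TCA) cycle, measured in interscapular brown adipose tissue (iBAT) of cold-exposed mice with and without the lncRNA Gm15551. They were chosen by symbol from a fixed list and were 32 of the 54347 gene records in the count table. All 32 passed the filter on low counts and were among the 13732 genes tested. The list held the mitochondrial pyruvate carrier (2 genes), the core of the pyruvate dehydrogenase complex (5 genes), the kinases (4) and the phosphatases with their regulator (3) that switch this complex off and on, and pyruvate carboxylase (1). It also held 6 genes of the first part of the cycle, 5 of the second part, the NADP-dependent isocitrate dehydrogenases (2), the malate-aspartate shuttle (3) and an enzyme of ketone body use (1).

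Poly A RNA was sequenced from iBAT of 10 C57BL/6N mice, all 12 weeks old, fed chow and housed singly at 4 °C for 24 h before dissection. The ΔGm15551 group (5 mice, replicates 1, 2, 4, 5 and 7) carried a CRISPR/Cas9 deletion that removed exon 1 of Gm15551 in all tissues, and the wild type group (5 mice, described as litter mates, replicates 2, 3, 5, 6 and 7) carried none, so that cold exposure was shared by both groups and was not itself compared. A single deletion allele was examined. Wild type replicates 5, 6 and 7 have mouse numbers far above those of the other 7 mice. Whether these 3 mice form another cohort is not given in the sources used here, and such a difference cannot be told apart from genotype for them. Without them, with wild type replicates 2 and 3 alone left, 13 of the 32 genes had a fitted difference above 0. That equals the number found with them, but 6 of the 32 signs turned. In this smaller fit 0 were called. Total counts ranged from 9680976 to 15771170 per mouse, Gm15551 had 0 counts in all 5 ΔGm15551 mice and in wild type replicate 7 and 1, 2, 6 and 7 counts in the other 4 wild type mice, and the 8 brown adipocyte markers examined were counted in all 10 mice, with Ucp1, the uncoupling protein of brown fat, between 5733 and 10960 CPM (counts scaled to a common library total).

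Pyruvate from glycolysis enters mitochondria through a carrier of MPC1 and MPC2 and is either oxidised to acetyl-CoA by the pyruvate dehydrogenase complex or carboxylated to oxaloacetate by pyruvate carboxylase. Acetyl-CoA, which in brown fat also comes from fatty acid oxidation, condenses with oxaloacetate to citrate, and the cycle then yields the reduced cofactors that feed the respiratory chain. Brown adipocytes in the cold run this chain uncoupled to release heat, and phosphorylation of the pyruvate dehydrogenase E1 alpha subunit by the PDK kinases turns the complex off, whereas the PDP phosphatases turn it on again.

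The start regions of 5 of these genes are shown because they stand for the patterns described further on. Pdk4 and Dlat were among the genes that differed widely between mice, Suclg1 was the steadiest, and Ogdh and Got1 hold the core of the element bound by the oestrogen-related receptors (ERR), nuclear receptors known for driving mitochondrial genes. Each window covers 300 bases of GRCm38.p6 around a RefSeq transcript start and is written 5′ to 3′ on the strand of the gene. Ogdh has several such starts, and of its windows only the one shown holds the ERR core. Capitals mark the ERR core AAGGTCA or its reverse complement, and windows without capitals hold neither that core nor those of NRF1 (GCATGCG) or the ETS factor GABP (CCGGAAG) on either strand. These genes were picked after their values had been seen.
Pdk4, chr6:5496229-5496528, minus strand: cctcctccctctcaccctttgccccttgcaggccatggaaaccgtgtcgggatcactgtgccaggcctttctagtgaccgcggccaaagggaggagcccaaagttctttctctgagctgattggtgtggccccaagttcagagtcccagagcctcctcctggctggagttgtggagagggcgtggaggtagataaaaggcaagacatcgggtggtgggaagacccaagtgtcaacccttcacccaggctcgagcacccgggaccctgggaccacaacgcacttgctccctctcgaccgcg
Dlat, chr9:50659731-50660030, minus strand: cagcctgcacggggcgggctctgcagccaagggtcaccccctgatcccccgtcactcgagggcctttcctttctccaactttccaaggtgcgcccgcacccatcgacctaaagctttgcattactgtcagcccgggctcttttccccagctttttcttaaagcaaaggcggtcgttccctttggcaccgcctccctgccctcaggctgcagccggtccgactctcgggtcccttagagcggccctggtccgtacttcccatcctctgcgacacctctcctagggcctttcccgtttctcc
Suclg1, chr6:73248255-73248554, plus strand: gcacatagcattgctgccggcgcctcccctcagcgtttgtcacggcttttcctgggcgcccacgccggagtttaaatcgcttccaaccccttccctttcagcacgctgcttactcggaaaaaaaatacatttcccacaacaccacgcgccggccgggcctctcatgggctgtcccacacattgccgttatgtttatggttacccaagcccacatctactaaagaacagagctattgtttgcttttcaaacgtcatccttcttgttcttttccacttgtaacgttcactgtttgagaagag
Ogdh, chr11:6291920-6292219, plus strand: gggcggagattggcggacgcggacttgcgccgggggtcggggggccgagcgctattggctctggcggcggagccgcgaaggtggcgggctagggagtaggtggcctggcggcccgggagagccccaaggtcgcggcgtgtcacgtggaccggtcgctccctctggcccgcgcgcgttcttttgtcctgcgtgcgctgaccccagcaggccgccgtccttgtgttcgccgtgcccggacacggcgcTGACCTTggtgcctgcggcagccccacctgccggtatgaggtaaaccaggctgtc
Got1, chr19:43524556-43524855, minus strand: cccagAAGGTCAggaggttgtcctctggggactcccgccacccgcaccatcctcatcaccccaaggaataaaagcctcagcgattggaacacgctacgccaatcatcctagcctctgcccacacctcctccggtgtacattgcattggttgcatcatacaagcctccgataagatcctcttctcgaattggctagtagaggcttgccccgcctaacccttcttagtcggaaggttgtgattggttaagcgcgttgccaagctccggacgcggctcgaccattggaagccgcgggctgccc

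RefSeq windows were found for 30 of the 32 genes, all but Idh3a and Pdp1. The ERR core was present in windows of 2 of these 30 genes (6.67%), compared with 5.38% of the 27025 genes in the table. The NRF1 core was present in 2 genes (6.67%), Ogdh and Pdhb, compared with 4.01% of all genes. The ETS core was present in 4 genes (13.3%), Dlst, Idh3b, Idh3g and Mpc1, compared with 9.93% of all genes. A match describes letters in a window and is not a measured binding site.

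The most abundant transcripts per length were, by mean coding length, those of the cycle, of the carrier gene Mpc1 and of a single kinase. CPM were divided by transcript length to compare genes, and because the length depends on which transcripts are counted, 3 definitions were used. With the mean length of the coding transcripts, Mdh2 (mitochondrial malate dehydrogenase) was highest, at 1143 ± 92.2 CPM per kb (SD over 10 mice), followed by Pdk4 at 932 ± 228, Sucla2 at 892 ± 166 and Mpc1 at 883 ± 71.5. These 4 neighbours in the order did not differ beyond their spread, apart from Mdh2 and Mpc1, whose ranges of 1002 to 1281 and 803 to 1043 CPM per kb overlapped only at their edges. With the union of all exons Pdk4 came first at 538 ± 132 CPM per kb, and with the longest coding transcript Idh3a came first at 692 ± 146. The lowest genes were Pdk3, Pdp1, Pdpr and Pdk1 under each of the 3 definitions, at 0.667, 2.64, 8.68 and 10.2 CPM per kb by mean length.

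**Figure D1:**
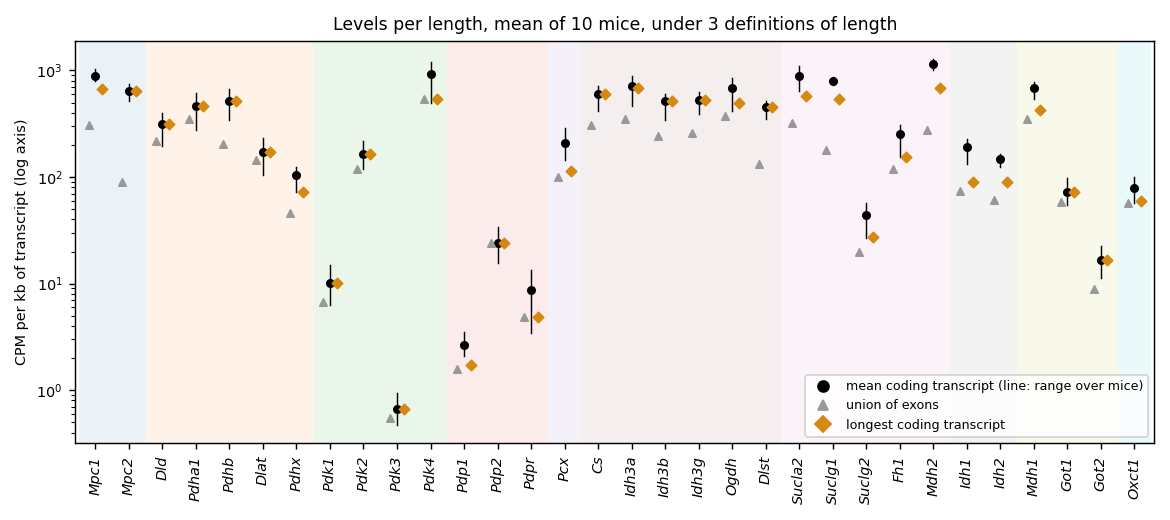
Level of each of the 32 genes in CPM per kb of transcript (log axis), as the mean of 10 mice under 3 definitions of transcript length. Black points use the mean coding transcript, with a line for the range over mice, grey triangles the union of exons and orange diamonds the longest coding transcript, and shaded bands group genes by role. Pdk4 stands far above Pdk1 and Pdk3 (932 against 10.2 and 0.667 CPM per kb by mean length), and Sucla2 above Suclg2 (892 against 43.6).

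Within families 1 member often held most of the transcripts. Pdk4, the kinase known to be induced by fasting and fatty acids, made up 83.6% ± 3.06 of the 4 kinases per length, Pdk2 15.4% ± 2.86, Pdk1 0.941% ± 0.233 and Pdk3 0.0646% ± 0.0302 (SD over 10 mice, mean coding length). The share of Pdk4 was 80.7% with the union of exons and 74.9% with the longest transcript. Of the beta subunits of succinyl-CoA ligase, the ADP-forming Sucla2 held 95.3% ± 0.368 and the GDP-forming Suclg2 4.66% ± 0.368. Pdp2 held 89.7% ± 3.34 of the phosphatases, and the cytosolic aspartate aminotransferase Got1 held 81.0% ± 3.95 against 19.0% for the mitochondrial Got2, a split that is uncertain because Got2 shares 20.3% of its 31-base words with other genes of the same strand and 27.4% with genes of the other. The order within 2 pairs turned with the length used. Idh1 was 55.9% of the NADP-dependent isocitrate dehydrogenases by mean length and 49.5% by longest transcript, and Mdh1, the cytosolic malate dehydrogenase, was 37.2% of the malate dehydrogenases by mean length and 55.8% by the union of exons.

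Whether loss of Gm15551 altered these genes was then asked. In the quasi-likelihood fit of edgeR no gene passed a Benjamini-Hochberg adjusted p of 0.05 between ΔGm15551 and wild type iBAT, neither among the 32 genes (0) nor among all 13732 tested (0%). At an unadjusted p under 0.05 the count was 0 of 32, where 219 of all genes (1.59%) passed in edgeR, 228 (1.66%) in DESeq2 and 248 (1.81%) in limma-voom. In 0 of the 32 genes did the 5 ΔGm15551 mice lie wholly above or below the 5 wild type mice, compared with 44 of all genes (0.32%). The log2 fold change (log2FC, ΔGm15551 against wild type) was above 0 for 13 genes and below 0 for 19, where 49.7% of all genes were above 0. The median over the 32 genes was -0.014 and that over all genes -0.001, and the median absolute log2FC was 0.063 and 0.094. The adjusted p was 0.999738 for 31 of the 32 genes and 0.999857 for Mdh2. In bulk tissue fewer brown adipocytes and less RNA per adipocyte cannot be told apart.

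The size of an undetected change was bounded. The 95% confidence interval of the log2FC lay between -1 and 1 for all 32 genes, compared with 90.2% of all genes tested, and between -0.5 and 0.5 for 23 of the 32, compared with 55.1%. The widest interval belonged to Pdpr, at -0.94 to 0.73, and the narrowest to Suclg1, at -0.23 to 0.22. The signs of the log2FC depended on which mice were included. Leaving out ΔGm15551 replicate 1 turned 15 of the 32 signs and wild type replicate 7 turned 3, and leaving out another single mouse turned 2 to 12, most without wild type replicate 6 (12), ΔGm15551 replicate 5 (9) and wild type replicate 3 (8). Without ΔGm15551 replicate 1, 26 of the 32 genes were above 0 (median 0.080), and without wild type replicate 7, 10 were (median -0.099). Without both of these mice, which had low levels of most of the 32 genes, 16 were above 0 (median -0.002). With replicates 2, 5 and 7 of both groups alone (6 mice) 29 were, with or without the number as a block (median 0.19). This subset keeps wild type replicate 7 but leaves out ΔGm15551 replicate 1. In all of these fits 0 genes were called.

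**Figure D2:**
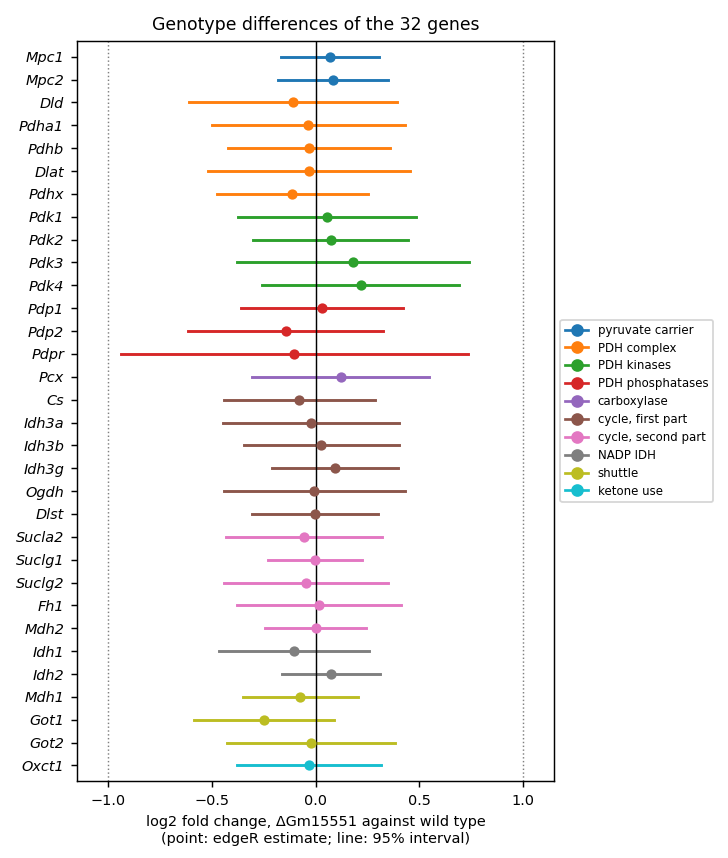
Log2 fold change of the 32 genes, ΔGm15551 against wild type, with points for the edgeR estimate, lines for its 95% interval and colours for the role of the gene. All intervals cross 0 and lie between the dotted lines at -1 and 1, which mark a 2-fold difference.

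In the following, values are TMM-scaled CPM per mouse, given for replicates 1, 2, 4, 5 and 7 of ΔGm15551 and for replicates 2, 3, 5, 6 and 7 of wild type, in this order, and ± denotes the SD over 5 mice. Both genes of the pyruvate carrier varied little between mice. Mpc1 (ENSMUSG00000023861.17, chromosome 17, 8282904 to 8297661, plus strand) was at 679.6, 585, 644, 623 and 759 CPM in the ΔGm15551 mice and 587, 653, 594, 649 and 652 CPM in the wild type mice. Mpc2 (ENSMUSG00000026568.6, chromosome 1, 165460637 to 165481214, plus strand), its partner subunit, was at 764, 598, 609.7, 696 and 725 CPM in the ΔGm15551 mice and 710.3, 529, 631, 628 and 704 CPM in the wild type mice. The groups overlapped for both genes, with the highest Mpc1 value in ΔGm15551 replicate 7 and the highest Mpc2 value in ΔGm15551 replicate 1, the mouse that was lowest for 19 of the 32 genes. The log2FC was 0.070 (SE 0.11) for Mpc1 and 0.083 (SE 0.12) for Mpc2. Of the 31-base words of Mpc1, 12.6% occur in other genes of the same strand and 18.2% on the other strand in 4930506C21Rik, to which 0.642% as many counts were assigned.

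The 5 core genes of the pyruvate dehydrogenase complex all had a log2FC just below 0, between -0.11 and -0.030, and 0 of 5 passed the test. These signs held with other scalings, but leaving out single mice turned those of 4 of the 5 genes, all but Pdhx. Pdha1 (ENSMUSG00000031299.10, chromosome X, 160122209 to 160138413, minus strand) encodes the E1 alpha subunit that the kinases phosphorylate. It was at 784, 1442, 1357, 1122 and 1758 CPM in the ΔGm15551 mice and 1077, 1634, 1441, 1545 and 926 CPM in the wild type mice. The lowest values were those of ΔGm15551 replicate 1 and wild type replicate 7 and the highest that of ΔGm15551 replicate 7, and the log2FC was -0.035 (SE 0.22). Dlat (ENSMUSG00000000168.9, chromosome 9, 50634633 to 50659780, minus strand), the E2 acetyltransferase whose start region is shown above, was at 419, 849, 727, 521 and 929.7 CPM in the ΔGm15551 mice and 615, 804, 758, 872 and 473 CPM in the wild type mice. Its ΔGm15551 mice spanned a wider range than the wild type mice and enclosed all of them, with a log2FC of -0.031 (SE 0.23). Dld (ENSMUSG00000020664.10, chromosome 12, 31331277 to 31351453, minus strand), the E3 subunit that the complex shares with 2-oxoglutarate dehydrogenase, was at 506, 979, 883, 546 and 974.8 CPM in the ΔGm15551 mice and 784, 1018, 941, 949 and 502 CPM in the wild type mice. Here 2 ΔGm15551 mice (replicates 1 and 5) and 1 wild type mouse (replicate 7) were at 502 to 546 CPM and the other 7 mice between 784 and 1018, and the log2FC was -0.11 (SE 0.23). Pdhb, the E1 beta subunit, was at 776 ± 197 CPM in ΔGm15551 mice against 793 ± 131 CPM in wild types, and Pdhx, the E3-binding protein, at 174 ± 33.3 CPM in ΔGm15551 mice against 188 ± 36.3 CPM in wild types. Their log2FC were -0.030 (SE 0.18) and -0.11 (SE 0.17). Pdhb shares 17.4% of its 31-base words with genes of the same strand, among them the pseudogene Gm6123, which had at most 4 counts in any mouse.

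All 4 kinases had a log2FC above 0, from 0.054 to 0.22, and 0 of 4 passed the test. With other scalings these signs held, and leaving out single mice turned that of Pdk1 alone. Pdk4 (ENSMUSG00000019577.6, chromosome 6, 5483351 to 5496309, minus strand) had the second smallest p of the 32 genes. It was at 1231, 2195, 2411, 2032 and 2287 CPM in the ΔGm15551 mice and 1784, 2282, 1807, 1855 and 1006 CPM in the wild type mice. The lowest mouse of each group stood well under the others, and the remaining 4 ΔGm15551 mice (2032 to 2411 CPM) overlapped the remaining 4 wild type mice (1784 to 2282 CPM) through wild type replicate 3. The log2FC was 0.22 (SE 0.22) and the edgeR p before adjustment 0.339. Without ΔGm15551 replicate 1 it was 0.35, without wild type replicate 7 it was 0.072, and without wild type replicates 5, 6 and 7, the mice with the far higher mouse numbers, it was -0.00091, so that the sign of Pdk4 turned there.

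Pdk2, the kinase expressed in most tissues, was at 267, 425, 367, 442 and 412 CPM in the ΔGm15551 mice and 312, 329.9, 396, 491 and 290 CPM in the wild type mice. The highest value was in wild type replicate 6 and the lowest in ΔGm15551 replicate 1. Pdk1, a target of hypoxia signalling, was at 32.8, 60.6, 48.0, 49.3 and 77.8 CPM in the ΔGm15551 mice and 42.2, 53.5, 47.4, 67.1 and 48.1 CPM in the wild type mice. ΔGm15551 replicate 7 was highest and ΔGm15551 replicate 1 lowest, so that the ΔGm15551 group enclosed the wild type group. Pdk3 was close to the limit of what these depths resolve, with 13 to 27 counts per mouse, and was at 1.10, 1.56, 1.48, 1.30 and 2.01 CPM in the ΔGm15551 mice and 1.43, 1.11, 0.999, 1.17 and 1.95 CPM in the wild type mice. It was the only kinase of which wild type replicate 7 had the highest wild type value. The log2FC were 0.072 (SE 0.17) for Pdk2, 0.054 (SE 0.20) for Pdk1 and 0.18 (SE 0.26) for Pdk3, the last with an unadjusted edgeR p of 0.50.

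The phosphatase genes did not share a direction. Pdpr (ENSMUSG00000033624.10, chromosome 8, 111094630 to 111137074, plus strand), the regulatory subunit of the phosphatase, had the largest spread between mice of the 32 genes, with an SD of 0.74 in log2 CPM within groups, which exceeded that of 96.4% of all genes tested. It was at 11.6, 37.3, 31.99, 13.8 and 22.2 CPM in the ΔGm15551 mice and 20.4, 35.2, 30.8, 29.2 and 9.63 CPM in the wild type mice. In both groups the values ranged over more than 3-fold, and the lowest were those of ΔGm15551 replicates 1 and 5 and wild type replicate 7. The log2FC was -0.10 (SE 0.38). Pdp2 was at 131 ± 27.8 CPM in ΔGm15551 mice against 145 ± 45.6 CPM in wild types and Pdp1, a low gene with 66 to 130 counts per mouse, at 7.26 ± 1.86 CPM in ΔGm15551 mice against 7.11 ± 1.01 CPM in wild types. Their log2FC were -0.14 (SE 0.22) and 0.031 (SE 0.18).

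Pyruvate carboxylase, Pcx (ENSMUSG00000024892.17, chromosome 19, 4510472 to 4621752, plus strand), supplies oxaloacetate to the cycle. It was at 327, 651, 485, 544 and 479.7 CPM in the ΔGm15551 mice and 396, 422, 533, 609.7 and 328 CPM in the wild type mice. The lowest values were nearly equal, in ΔGm15551 replicate 1 and wild type replicate 7, and the highest was in ΔGm15551 replicate 2. The log2FC was 0.12 (SE 0.20). When 1 mouse was left out it lay between 0.0029 (without ΔGm15551 replicate 2) and 0.243 (without wild type replicate 6), so that its size rested on single mice.

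**Figure D3:**
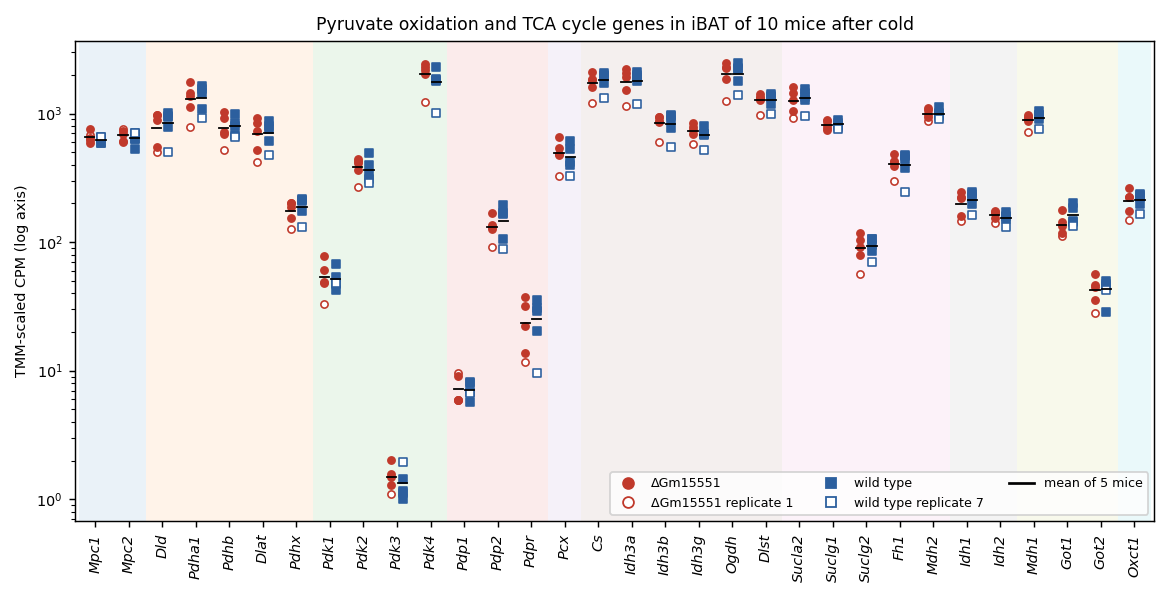
TMM-scaled CPM (log axis) of the 32 genes in each of 10 mice, with red circles for ΔGm15551, blue squares for wild type, bars for the mean of 5 mice and shaded bands for the role of the gene. Open symbols mark ΔGm15551 replicate 1 and wild type replicate 7, which are at or near the bottom of most genes but not of Mpc1, Mpc2 and Pdp1.

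In the first part of the cycle 2 of 6 genes had a log2FC above 0 and 4 below, all between -0.080 and 0.094, and 0 passed the test. Cs (ENSMUSG00000005683.8, chromosome 10, 128337734 to 128362479, plus strand), the citrate synthase that opens the cycle, was at 1213, 1855, 1823, 1612 and 2101 CPM in the ΔGm15551 mice and 1735, 2005, 2078, 1959 and 1314 CPM in the wild type mice. The lowest mouse of each group was separated from the others, which overlapped, and the log2FC was -0.080 (SE 0.17). Idh3b, a subunit of the NAD-dependent isocitrate dehydrogenase, was at 596, 936, 859, 878 and 934 CPM in the ΔGm15551 mice and 770.1, 883, 970.2, 948 and 551 CPM in the wild type mice. ΔGm15551 replicate 1 lay apart from the other ΔGm15551 mice, which were between 859 and 936 CPM, and wild type replicate 7 was lower still. The log2FC of Idh3b was 0.028 (SE 0.17). Its catalytic partner Idh3a was at 1770 ± 429 CPM in ΔGm15551 mice against 1798 ± 364 CPM in wild types and Idh3g at 726 ± 99.9 CPM in ΔGm15551 mice against 680.1 ± 102 CPM in wild types. Ogdh and Dlst, the E1 and E2 subunits of 2-oxoglutarate dehydrogenase, were at 2030 ± 498 CPM in ΔGm15551 mice against 2038 ± 433 CPM in wild types and at 1264 ± 173 CPM in ΔGm15551 mice against 1267 ± 175 CPM in wild types. For Ogdh and Dlst the log2FC was -0.0058 and -0.0036, with 95% intervals of -0.44 to 0.43 and -0.31 to 0.30. With library totals in place of TMM the sign of Dlst turned (0.0025).

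The second part of the cycle had the smallest differences, with log2FC from -0.056 to 0.016 and 0 of 5 genes past the test. Suclg1 (ENSMUSG00000052738.14, chromosome 6, 73248382 to 73276911, plus strand), the alpha subunit of succinyl-CoA ligase, had the smallest spread of the 32 genes, an SD of 0.096 in log2 CPM within groups, under that of all but 2.53% of the genes tested. It was at 778, 817, 748, 877 and 885 CPM in the ΔGm15551 mice and 790.1, 821, 850, 888 and 764 CPM in the wild type mice. Mdh2 (ENSMUSG00000019179.10, chromosome 5, 135778480 to 135790398, plus strand), which closes the cycle, was at 872, 939, 1000.1, 1100.1 and 1059 CPM in the ΔGm15551 mice and 962, 1003, 1114, 991 and 900 CPM in the wild type mice. The coefficient of variation was 7.29% and 5.92% for Suclg1 and 9.20% and 7.86% for Mdh2 in the 2 groups. The group means were nearly equal, at 821 and 822 CPM for Suclg1 and at 994 and 994 CPM for Mdh2. Sucla2 was at 1262 ± 276 CPM in ΔGm15551 mice against 1311 ± 228 CPM in wild types, Suclg2 at 89.8 ± 23.7 CPM in ΔGm15551 mice against 92.6 ± 14.9 CPM in wild types and the fumarase Fh1 at 405 ± 69.6 CPM in ΔGm15551 mice against 401 ± 93.8 CPM in wild types. Suclg2 shares 20.6% of its 31-base words with other genes of the same strand, of which the pseudogene Gm15163 had at most 1 count.

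Outside the cycle proper, Got1 (ENSMUSG00000025190.13, chromosome 19, 43499752 to 43524605, minus strand) had the smallest p of the 32 genes. The cytosolic aspartate aminotransferase, whose start region with an ERR core is shown above, was at 111, 133, 179, 119 and 142 CPM in the ΔGm15551 mice and 144, 185, 202, 147 and 134 CPM in the wild type mice. Apart from ΔGm15551 replicate 4 the ΔGm15551 mice lay at or under 142 CPM and apart from wild type replicate 7 the wild type mice at or above 144 CPM, so that the groups overlapped through these mice. The log2FC of Got1 was -0.25 (SE 0.16). Its p in edgeR was 0.138 before adjustment and 0.999738 after it. Without ΔGm15551 replicate 4 its unadjusted edgeR p was 0.032, and without the 3 mice with the highest share of counts on muscle genes 0.0301. Without ΔGm15551 replicate 5 it rose to 0.253. Without wild type replicate 5 Got1 was no longer first, and the smallest edgeR p of the 32 genes was 0.30 (Idh3g). No adjusted p among the 32 genes was under 0.835 in any alternative.

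Its partners in the malate-aspartate shuttle, which carries reducing equivalents into mitochondria, were Mdh1 at 885 ± 99.1 CPM in ΔGm15551 mice against 931 ± 112 CPM in wild types and Got2 at 42.2 ± 10.8 CPM in ΔGm15551 mice against 42.9 ± 8.46 CPM in wild types, with log2FC of -0.073 (SE 0.13) and -0.023 (SE 0.19). Got2 shares 20.3% of its 31-base words with genes of the same strand, such as its pseudogene Got2-ps1 with 0 counts, so that its level is uncertain. Oxct1 (ENSMUSG00000022186.14, chromosome 15, 4026383 to 4155344, plus strand), which activates ketone bodies to acetoacetyl-CoA, was at 149, 263, 223, 176 and 224 CPM in the ΔGm15551 mice and 197, 225, 233, 238 and 165 CPM in the wild type mice. The wild type range lay inside the ΔGm15551 range, and the log2FC was -0.032 (SE 0.16). The NADP-dependent Idh1 (cytosolic) was at 199.5 ± 44.0 CPM in ΔGm15551 mice against 214 ± 33.9 CPM in wild types and Idh2 (mitochondrial) at 162 ± 14.4 CPM in ΔGm15551 mice against 154 ± 14.8 CPM in wild types, with log2FC of -0.10 (SE 0.17) and 0.075 (SE 0.11).

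Ratios of partner genes within a mouse do not depend on depth or scaling, and 10 were compared between the genotypes by an exact permutation test (two-sided). At an adjusted p of 0.05, 0 of the 10 were called. The smallest p was that of Idh1 to Idh2, whose log2 ratio was 0.27 ± 0.29 in ΔGm15551 and 0.47 ± 0.16 in wild type, a difference of -0.19 (exact permutation p = 0.254, adjusted p = 0.860). The log2 ratio of Pdk4 to Pdk2 was 2.39 ± 0.22 in ΔGm15551 and 2.24 ± 0.41 in wild type (exact permutation p = 0.516, adjusted p = 0.860). The tightest ratio was that of Sucla2 to Suclg2 in wild type, at 3.82 ± 0.058, compared with 3.83 ± 0.17 in ΔGm15551.

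The larger differences were between mice of the same genotype. The 32 genes together held 1.604% of the counts in ΔGm15551 replicate 1 and 1.62% in replicate 7 of the wild type, compared with 2.14 to 2.44% in the other 8 mice. ΔGm15551 replicate 1 was the lowest of the 10 mice for 19 genes and wild type replicate 7 for 8, whereas ΔGm15551 replicate 7 was the highest for 12 and ΔGm15551 replicate 2 for 7. The first principal component of the log2 CPM of the 32 genes held 75.0% of their variance and set the same 2 mice at -2.74 and -2.44, with the others between -0.78 and 1.32. These 2 mice were singled out after their values had been seen, so the following is a description with no test.

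Relative to the mean of the other 4 mice of its group, ΔGm15551 replicate 1 was lower for 29 of the 32 genes, with a median difference of -0.58 in log2 CPM, and wild type replicate 7 for 28, with a median of -0.47. The medians over all genes tested were 0.0050 and 0.0040. A difference below -0.5 was found for 21 genes (65.6%) in ΔGm15551 replicate 1, compared with 10.7% of all genes, and for 14 (43.8%) in wild type replicate 7, compared with 13.2%. In the other 8 mice the medians over the 32 genes lay between -0.094 and 0.24. The 5 core genes of the pyruvate dehydrogenase complex were lower in both mice (median -0.70 and -0.63), as were the 6 genes of the first part of the cycle (-0.60 and -0.60). Pdpr was lowest of all, at -1.07 and -1.54, and Pdk4 was at -0.86 and -0.93.

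A few genes did not follow. Mpc1 was at 0.065 in ΔGm15551 replicate 1 and at 0.072 in wild type replicate 7, and Mpc2 at 0.22 and 0.18. Pdp1 was at 0.52 in ΔGm15551 replicate 1 and at -0.074 in wild type replicate 7. Pdk3 (-0.46 and 0.67), Got2 (-0.67 and 0.019) and Pdk1 (-0.815 and -0.105) were low in ΔGm15551 replicate 1 but not, or far less, in wild type replicate 7. Other mice were low for some of these genes too, with Got2 at -0.70 in wild type replicate 3 and Pdk3 at -0.41 in wild type replicate 5. Suclg1 was at -0.093 and -0.13 in the 2 mice. Over the 32 genes the differences of the 2 mice had a Pearson correlation of 0.61 and a Spearman correlation of 0.65, against 0.61 and 0.63 over all 13732 genes. This relation is across genes, which are not independent and share libraries and scaling.

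**Figure D4:**
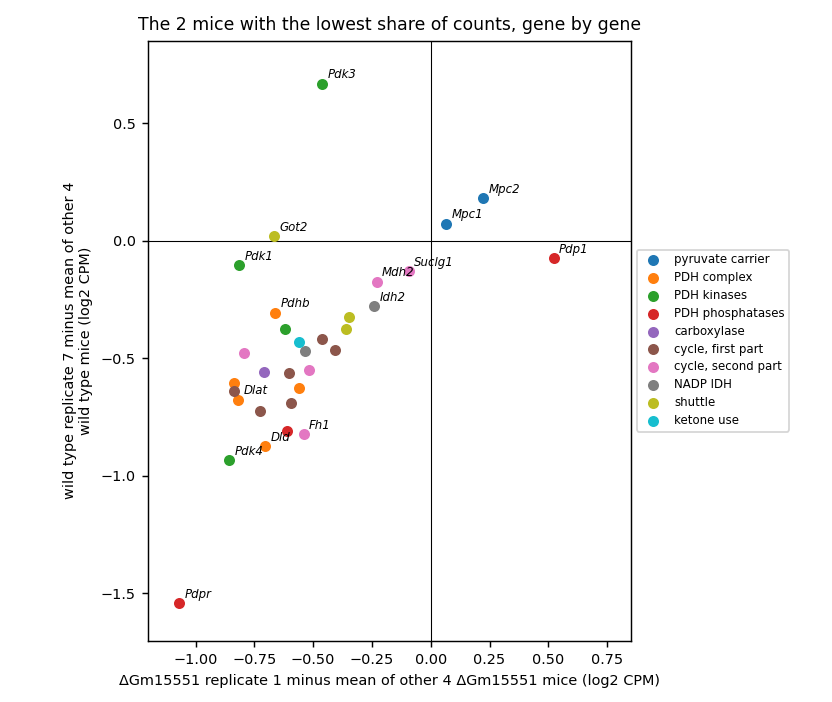
Difference in log2 CPM from the mean of the other 4 mice of the same group, for ΔGm15551 replicate 1 (x axis) and wild type replicate 7 (y axis), with 1 point per gene coloured by role. Most of the 32 genes lie below 0 on both axes, Pdpr farthest, while Mpc1 and Mpc2 lie above 0 on both.

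The genes that varied most had longer transcripts. The SD within groups and the log2 length of the longest coding transcript had a Pearson correlation of 0.71 and a Spearman correlation of 0.69 over the 32 genes, a description across genes of the same libraries. The 16 genes with the longer transcripts had medians of -0.72 in ΔGm15551 replicate 1 and -0.62 in replicate 7 of the wild type, and the 16 with the shorter ones -0.43 and -0.32. A trend of the same direction was present over all genes tested. Here the 20% of genes with the shortest and the 20% with the longest transcripts (mean coding length) were set against the mean of all 10 mice. ΔGm15551 replicate 1 had medians of 0.129 for the short and -0.012 for the long genes, wild type replicate 7 had 0.18 and -0.066, and ΔGm15551 replicate 5 had 0.165 and -0.109, compared with -0.143 to 0.039 and -0.010 to 0.081 for the other 7 mice. After a loess correction of the differences for transcript length (mean coding length), the medians over all 32 genes were -0.56 and -0.47, close to those without it. The 16 genes with the longer longest transcripts were then at -0.67 and -0.54 and the other 16 at -0.41 and -0.37. Mpc1 then stood at -0.14 and -0.23 and Mdh2 at -0.37 and -0.41, whereas Mpc2 stood at 0.15 and 0.022.

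Markers of other cells moved in the same mice, and their part in the levels was not tested. The 10 skeletal muscle genes held 0.0734% of the counts in ΔGm15551 replicate 1, 0.158% in ΔGm15551 replicate 4, 0.263% and 0.0228% in wild type replicates 7 and 5, and at most 0.00615% in the other 6 mice. ΔGm15551 replicate 4 did not have low levels, with a median difference of 0.11 over the 32 genes. The 5 red blood cell genes were all higher in both mice (median differences of 0.72 and 1.67, ΔGm15551 replicate 1 first), as were the 5 endothelial genes (0.57 and 0.51). All 5 endothelial genes were also higher in ΔGm15551 replicate 5 (0.26) and wild type replicate 2 (0.22), where the medians over the 32 genes were -0.092 and -0.094. Of the 5 Schwann cell genes 4 were higher in each (medians 1.12 and 0.44), and all 5 were also higher in ΔGm15551 replicate 5 (0.95). In wild type replicates 3 and 5 also 4 of 5 were higher (0.31 and 0.29), while the medians over the 32 genes were 0.18 and 0.20. The 5 macrophage genes were all higher in ΔGm15551 replicate 1 (0.67), whereas 3 of 5 were lower in wild type replicate 7 (-0.12) and 4 of 5 higher in wild type replicate 2 (0.55).

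Markers of adipocytes went both ways in these 2 mice. Of the 8 brown adipocyte genes, 5 were lower in the first of them (ΔGm15551) and 6 in the second (wild type), with medians of -0.10 and -0.16, while the lowest median was that of ΔGm15551 replicate 2 (-0.35, 5 of 8 lower), a mouse with high levels of the 32 genes (median 0.24). Ucp1 was lowest in these mice, at 5733 and 6421 CPM, and between 8245 and 10960 CPM in the other 8. Cox8b, a subunit of cytochrome c oxidase, was highest in them, at 804.6 and 794 CPM compared with 416.5 to 706 CPM, and Cox7a1, another subunit, was at 477 and 508 CPM compared with 253 to 499.9 CPM. Of the 5 general adipocyte markers 3 and 4 were lower (medians -0.11 and -0.26). The lipid droplet protein gene Plin1 (988 and 892 CPM, against 1198 to 1468 in the other 8) and the adipogenic receptor gene Pparg (140.2 and 123 CPM, against 173 to 212) were lowest in these mice, while the fatty acid-binding protein gene Fabp4 was highest (13620 and 14460 CPM, against 10750 to 13220). For Cox8b, Cox7a1 and Fabp4 the highest of the other 8 mice was ΔGm15551 replicate 5. Its median difference over the 32 genes was -0.092. Apart from Ucp1, these markers were picked out after their values had been seen. The part of these in the levels of the 32 genes was not tested.

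**Figure D5:**
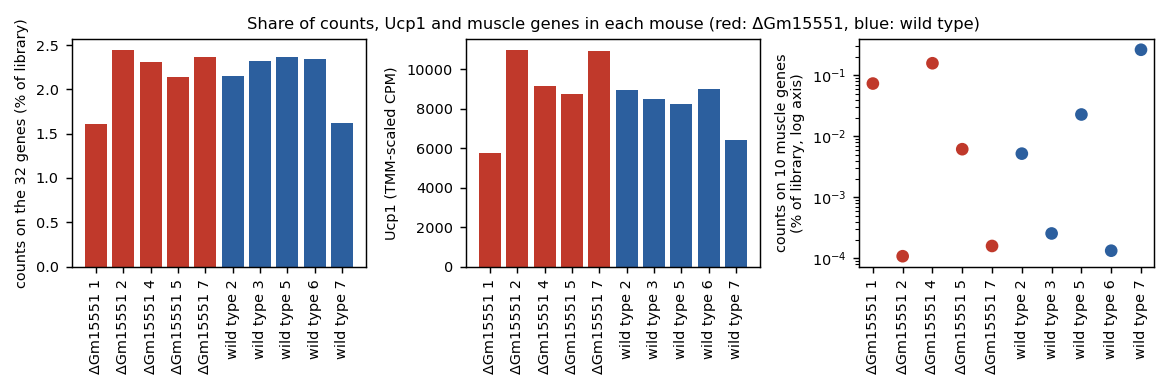
Share of counts on the 32 genes, Ucp1 in TMM-scaled CPM, and share of counts on 10 skeletal muscle genes (log axis) in each mouse, red for ΔGm15551 and blue for wild type. ΔGm15551 replicate 1 and wild type replicate 7 are lowest in the first and second panel, but Ucp1 does not stand for all brown adipocyte genes, since Cox8b was highest in these 2 mice. The third panel shows ΔGm15551 replicate 4 among the mice with the most muscle counts.

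Of 47 further enzymes and carriers around the cycle, 42 were tested, 22 with a log2FC above 0 and 20 below, and 0 had an unadjusted p under 0.05 in edgeR (background 0.961% higher and 0.634% lower). Their median log2FC was 0.0020. Sdha, the flavoprotein subunit of succinate dehydrogenase, was at 1751 ± 391 CPM in ΔGm15551 mice against 1729 ± 402 CPM in wild types and was named after its values had been seen. It was lowest in the same 2 mice, at 1130 and 1085 CPM, and the median difference of the 42 genes was -0.38 in the first and -0.20 in the second of them. Of 15 regulators of mitochondrial genes, 9 had a log2FC above 0 and 6 below, and 0 had an unadjusted p under 0.05. As a list they were low in the same 2 mice, with 14 of 15 below the mean of the other 4 mice of the group in the first (median -0.30) and 13 of 15 in the second (median -0.51).

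The 2 smallest p among these lists belonged to Esrrb and Ppard, a pair of nuclear receptors. Esrrb, one of the receptors that bind the ERR element, was at 3.59, 5.81, 8.02, 4.67 and 6.47 CPM in the ΔGm15551 mice and 5.81, 8.37, 10.3, 7.79 and 5.84 CPM in the wild type mice. ΔGm15551 replicate 4 and wild type replicates 2 and 7 placed the groups in overlap, and edgeR gave a log2FC of -0.42 (SE 0.22) with an unadjusted p of 0.0837. Ppard, a fatty acid-sensing receptor, was at 26.6, 45.3, 41.2, 41.8 and 41.8 CPM in the ΔGm15551 mice and 33.1, 33.5, 36.4, 34.7 and 26.3 CPM in the wild type mice. ΔGm15551 replicate 1 lay with the wild type mice and the other 4 ΔGm15551 mice lay above all wild type mice, with a log2FC of 0.26 (SE 0.14) and an unadjusted edgeR p of 0.0908. After adjustment both p were 0.999738.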

How the data were processed

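The 10 mice were grouped by genotype as given in the labels, and each has its own mouse number, so that p-values measure the spread between mice. Per the study's methods the authors trimmed the reads (cutadapt) and estimated transcript abundance (salmon) on GENCODE M22 transcripts on GRCm38 (or these joined with RNAcentral), and tool versions and the use of strand are not given in the sources used here. The deposited values were estimated counts (expected counts) per gene, whole numbers with 1 column per mouse and no scaling, and were used as they stand. All columns were assigned to a mouse by name (0 left over).

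For the test of genotype, R 4.3.3 was used with edgeR 4.0.16 (filterByExpr with minimum count 10 and total 15, TMM, robust glmQLFit and glmQLFTest with genotype as the only term, Benjamini-Hochberg over the 13732 genes tested, threshold 0.05), limma 3.58.1 and DESeq2 1.42.0. For RNA-seq the study's methods name DESeq2, with likelihood ratio tests for several factors or levels, Wald tests in other cases and apeglm for shrunken fold changes and s-values, whereas edgeR was the main test here and the DESeq2 Wald test an alternative without shrinkage. edgeR estimated a common dispersion of 0.0523, equal to a biological coefficient of variation of 0.229. log2 CPM had a prior count of 2, and standard errors were derived from the F statistic. Ratios used a pseudocount of 0.5 on the counts and exact permutation over all 252 assignments, two-sided, with Benjamini-Hochberg over the 10. Scripts were tested on simulated counts first. Libraries of a group differed beyond sampling noise (chi-square per degree of freedom 12.4 to 80.9), so none was a repeat of another.

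Lengths, positions and shared 31-base words came from GENCODE M21 on GRCm38, where 99.5% of the gene IDs matched, and start windows from RefSeq. Genes given per mouse were the 4 kinases, Pdha1, Cs, Oxct1, Pcx, Mpc1, Mpc2, the 3 with the smallest p, the 3 with the largest and the 3 with the smallest spread within groups, any with a mouse lying apart, and, of the further pathway genes, the 2 with the smallest p. The 32 genes and all lists were chosen with earlier results of these data known. The alternatives tried are given with their effect in the closing section. Leaving out the 2 mice with the lowest share of counts on the 32 genes, the length correction and the longest coding transcript were chosen after seeing the data.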

Additional observations from a re-analysis of the deposited data

Results flagged for a closer look

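In 86 groups of 5 mice the distance of the highest or lowest mouse from its nearest neighbour was divided by the range of the group, and 4 exceeded the critical value of 0.71 for 5 samples. Chance alone gives about 1 in 20, which would be 4.3 of 86. Idh3b was at 596 CPM in ΔGm15551 replicate 1, while the other 4 ΔGm15551 mice were at 859 to 936 CPM. The log2 ratio of Pdp1 to Pdp2 was -3.26 in ΔGm15551 replicate 1 and between -4.53 and -4.22 in the other 4. The log2 ratio of Pcx to Pdha1 was -1.95 in wild type replicate 3 and between -1.50 and -1.34 in the other 4 wild type mice. The 32 genes held 1.62% of the counts in wild type replicate 7 and 2.15 to 2.36% in the other 4 wild type mice.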

How the results depend on the processing

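The count of genes called stayed at 0 of the 32 genes, of all genes and of the 10 ratios in each alternative that gives it, including an adjusted p under 0.1, and the lowest adjusted p of any of the 32 genes was 0.835 (no filter on low counts). At an unadjusted p under 0.05 the number of all genes was 219, and it was 869 without a filter, 562 without the 3 mice highest in muscle genes, 552 in the 6 mice with shared replicate numbers, 417 without the 2 mice lowest in these genes, and 168 to 418 when 1 mouse was left out (highest without ΔGm15551 replicate 1, then 404 without wild type replicate 7). Among the 32 genes 1 passed this level in 3 alternatives, Got1 in 2 and Pdk1 in 1 (the 6 mice without a block). Of 704 log2FC values under 22 alternatives, 567 kept their sign and 137 did not, all of uncalled genes, and 7 of the 32 genes kept it throughout. A depth of 9680976 to 15771170 counts limits Pdk3 and Pdp1 most. The causes of the shifts given here were not tested.

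Deviations of same-numbered mice from their group means correlated at 0.049, 0.062 and -0.46 for replicates 2, 5 and 7 (1000 most variable genes). Mice with different numbers were not compared, so these values cannot decide whether a shared number marks a pair. The 6 mice with shared numbers include wild type replicate 7 but not ΔGm15551 replicate 1, the other mouse with low levels. With the replicate number as a block in these 6 mice, 0 genes were called, 397 of all genes and 0 of the 32 had an unadjusted p under 0.05, and 29 of the 32 were above 0 (median 0.19, also 0.19 in the same mice without the block). The log2FC that changed sign with the replicate block were Cs (0.13), Idh1 (0.088), Idh3a (0.25), Ogdh (0.25), Dlst (0.19), Dld (0.17), Sucla2 (0.20), Suclg1 (0.10), Suclg2 (0.25), Mdh1 (0.041), Pdha1 (0.33), Pdhb (0.28), Dlat (0.30), Pdhx (0.14), Pdp1 (-0.28), Pdp2 (0.18), Pdpr (0.31), Got2 (0.0044), Mpc2 (-0.022) and Oxct1 (0.15). In the same 6 mice without the block they were Cs (0.12), Idh1 (0.10), Idh3a (0.24), Ogdh (0.22), Dlst (0.18), Dld (0.17), Sucla2 (0.20), Suclg1 (0.10), Suclg2 (0.26), Mdh1 (0.028), Pdha1 (0.33), Pdhb (0.28), Dlat (0.32), Pdhx (0.12), Pdp1 (-0.29), Pdp2 (0.12), Pdpr (0.26), Got2 (0.028), Mpc2 (-0.019) and Oxct1 (0.15).

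Sign changes elsewhere were fewer. Without the 3 mice highest in muscle genes they were Ogdh (0.011), Dlst (0.027), Suclg1 (0.038), Suclg2 (0.033), Fh1 (-0.011), Pdha1 (0.017), Pdhb (0.10), Dlat (0.0088), Pdp1 (-0.28), Got2 (0.10), the ratio Pdk4/Pdk2 (-0.0060), the ratio Pdp1/Pdp2 (-0.030) and the ratio Sucla2/Suclg2 (-0.071). Without the 2 mice lowest in these genes they were Ogdh (0.020), Dlst (0.0031), Suclg2 (0.00023), Fh1 (-0.022), Pdhb (0.024), Pdp1 (-0.10), Got2 (0.088) and the ratio Sucla2/Suclg2 (-0.062), and without the 3 wild type mice whose mouse numbers are far above the rest Suclg1 (0.029), Fh1 (-0.067), Pdhb (0.076), Pdk4 (-0.00091), Pdp1 (-0.053) and Got2 (0.18). Other scalings, filters and tests turned Mdh2 (-0.0051) with DESeq2 size factors, Mdh2 (-0.0052) in the DESeq2 Wald test, Dlst (0.0025) and Suclg1 (0.0030) with library totals, Dlst (0.0016) and Suclg1 (0.0022) without a filter and Mdh2 (-0.029) with a loess length correction. When 1 mouse was left out, the ranges that spanned 0 were Cs (-0.18 to 0.023), Idh3a (-0.14 to 0.10), Idh3b (-0.087 to 0.13), Ogdh (-0.11 to 0.13), Dlst (-0.079 to 0.078), Dld (-0.25 to 0.012), Sucla2 (-0.16 to 0.037), Suclg1 (-0.032 to 0.028), Suclg2 (-0.16 to 0.084), Fh1 (-0.12 to 0.11), Mdh2 (-0.042 to 0.044), Pdha1 (-0.17 to 0.10), Pdhb (-0.15 to 0.083), Dlat (-0.16 to 0.10), Pdk1 (-0.12 to 0.19), Pdp1 (-0.086 to 0.10), Pdpr (-0.34 to 0.069), Got2 (-0.15 to 0.091), Oxct1 (-0.13 to 0.066), the ratio Pdp1/Pdp2 (-0.12 to 0.26), the ratio Sucla2/Suclg2 (-0.047 to 0.061), the ratio Mpc1/Mpc2 (-0.081 to 0.064) and the ratio Pdhx/Dlat (-0.10 to 0.016).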

Other observations

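Among the regulators, which as a list were low in ΔGm15551 replicate 1 and wild type replicate 7, the coactivator gene Ppargc1a, named here after its values had been seen, was at 198, 172, 319.7, 184 and 230.3 CPM in the ΔGm15551 mice and 218, 361, 257, 229 and 93.7 CPM in the wild type mice. Wild type replicate 7 was lowest and wild type replicate 3 highest of the 10 mice, and ΔGm15551 replicate 1 lay within the range of the other ΔGm15551 mice. The ERR gene Esrra was at 359 and 364 CPM in ΔGm15551 replicate 1 and wild type replicate 7 and between 294 and 403 CPM in the other 8 mice. Sdhb, the iron-sulphur subunit of succinate dehydrogenase, was at 645 and 643 CPM in these 2 mice, inside the range of the others (593 to 730 CPM), unlike Sdha. The part of any of these in the levels of the 32 genes was not tested.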
